A study of Mus musculus with 32 samples.

Results

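The AMPA and NMDA receptor subunits were examined in the lumbar spinal cord of SOD1G93A mice with and without LAG-3. Of their genes, 10 were chosen by name, and each was found by the Ensembl identifier that carries its symbol: Gria1, Gria2, Gria3 and Gria4 of the AMPA receptor, and Grin1, Grin2a, Grin2b, Grin2c, Grin2d and Grin3a of the NMDA receptor. They are 10 of the 74021 genes in the cord table, and all 10 were among the 17702 genes with enough counts to be tested. The rule uses no threshold on a measured value. Grin3b, the other GluN3 gene of the NMDA receptor, is not among the 10 and is given with the other ionotropic subunits.

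The cord data came from 3 SOD1G93A/LAG-3+/+ and 3 SOD1G93A/LAG-3-/- libraries, all at P140, the late symptomatic stage, and the series of 32 libraries also held 26 libraries of sorted microglia. Both genotypes carried the human SOD1 transgene with the G93A mutation. The Lag3 null allele came from the strain B6.129S6(Cg)-Lag3tm1Doi/J and the transgene from B6.Cg-Tg(SOD1*G93A)1Gur/J. Littermates made up the LAG-3+/+ group. No cord without the transgene was sequenced, so every value below is from diseased tissue. The labels did not say which mouse each library came from, and p-values therefore measure the spread between libraries.

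AMPA receptors are tetramers of the subunits GluA1 to GluA4 and carry most of the fast excitatory current at synapses of the spinal cord. GluA2, the product of Gria2, makes the channel nearly impermeable to calcium once its transcript has been edited by ADAR2, the product of Adarb1, and motor neurons are known to be sensitive to calcium entry through receptors that lack edited GluA2. NMDA receptors need the obligatory subunit GluN1, the product of Grin1, and a partner of the GluN2 or GluN3 family, which sets how long the channel stays open and how strongly magnesium blocks it.

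Promoter sequences are shown for Gria2 and Gria4, both called lower in LAG-3-/- cord, and for Grin2c, which was not called. With the length and GC correction described below, the calls of Gria2 and Gria4 were lost and Grin2c was called higher. Any part of the promoters in these levels was not tested. The sequences are the 250 bases before the annotated start, from RefSeq on GRCm38.p6, a different build from the GRCm39 coordinates used elsewhere. All 3 lie on the minus strand and are written 5′ to 3′, with the GC box GGGCGG or its other strand CCGCCC in capitals. Overlapping matches were counted separately.
Gria2 (chr3:80802836-80803085): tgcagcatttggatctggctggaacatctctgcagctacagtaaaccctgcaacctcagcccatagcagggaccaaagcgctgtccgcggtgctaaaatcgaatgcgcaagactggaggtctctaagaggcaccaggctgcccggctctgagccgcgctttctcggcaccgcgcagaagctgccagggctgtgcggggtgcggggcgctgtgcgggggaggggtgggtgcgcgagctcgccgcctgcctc
Gria4 (chr9:4796235-4796484): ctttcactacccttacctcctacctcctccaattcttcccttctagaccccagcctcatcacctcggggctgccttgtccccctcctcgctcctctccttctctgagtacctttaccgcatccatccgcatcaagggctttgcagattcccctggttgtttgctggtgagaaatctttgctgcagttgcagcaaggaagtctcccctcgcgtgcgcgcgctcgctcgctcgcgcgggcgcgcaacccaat
Grin2c (chr11:115267244-115267493): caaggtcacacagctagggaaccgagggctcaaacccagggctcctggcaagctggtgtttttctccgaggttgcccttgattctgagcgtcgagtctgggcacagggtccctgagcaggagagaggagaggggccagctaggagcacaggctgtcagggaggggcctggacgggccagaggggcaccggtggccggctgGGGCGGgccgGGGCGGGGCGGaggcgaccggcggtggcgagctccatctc
The table held such windows for 5 of the 10 members, the others being Grin1 and Grin2d. GC boxes numbered 3 in the Grin2c window and 0 in the windows of Gria2, Gria4, Grin1 and Grin2d, and 32.7% of all 32851 windows held at least 1. The GC content of the 5 windows ran from 54.4% in Grin2d to 68.8% in Grin2c, against a median of 52.4% over all windows. No window was given for Gria1, Gria3, Grin2a, Grin2b or Grin3a.

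Cord libraries totalled 19430102 to 26994524 estimated counts. Lag3, the deleted gene, was at 74.5, 43.4 and 61.4 CPM (counts per 1000000, after TMM scaling of library sizes) in LAG-3+/+ cord and at 5.72, 5.60 and 5.50 CPM in LAG-3-/- cord, a log2 fold change of -3.41 (SE 0.19, adjusted p = 4.3e-05, edgeR's quasi-likelihood test), so the genotype labels held in all 6 libraries. LAG-3-/- library 2 stood apart, with the summed level of 6 skeletal muscle markers at 1096 CPM and of 6 Schwann cell markers at 1401 CPM, against at most 3.55 and 4.86 CPM in the other libraries. The sex read from Xist and 4 Y-linked transcripts was the listed one in 4 of the 6 libraries. LAG-3+/+ libraries 1 and 2 were listed as male but read as female. All 3 LAG-3+/+ libraries and LAG-3-/- library 1 had Xist at 219 to 558 CPM, whereas LAG-3-/- libraries 2 and 3 had Xist at 0.0395 CPM or less and Y-linked transcripts at 120 to 132 CPM, so the sex read from the transcripts is partly confounded with genotype.

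Among the subunits, 6 of 10 were lower in LAG-3-/- cord at an adjusted p under 0.1, namely Gria2, Gria3, Gria4, Grin2a, Grin2b and Grin3a, and none was higher (edgeR's quasi-likelihood test; p-values here and below were adjusted by Benjamini-Hochberg across the whole table). At the same threshold 23.9% of all genes tested were lower and 23.1% were higher. Their median log2 fold change was -0.42, against 0.00 over all genes tested. The fold minimum that the study added to this threshold, an absolute log2 fold change above 1, left none of the 10, against 3.15% of all genes on the lower side and 4.37% on the higher side. For the 6 genes called lower, every LAG-3-/- library was below every LAG-3+/+ library, as it was for 26.1% of all genes tested.

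Over all genes, the difference between the genotypes followed transcript length. Genes whose longest annotated transcript was 1 to 2 kb had a median log2 fold change of 0.50 and only 4.41% of them were lower, whereas the median was -0.33 at 6 to 8 kb, with 51.6% lower, and -0.53 at 8 to 12 kb, with 69.8% lower. GC content went the other way, from a median of -0.20 below 40% GC to 0.36 above 60% GC. The receptor transcripts are long, from 5493 bases for Grin1 to 24238 bases for Grin2b. Each fold change of a receptor subunit is also given after a correction that removes, in each library, whatever follows length and GC content over all genes, from any source. With it, 16.6% of all genes were lower and 16% higher, and of the 10 subunits 0 were lower and 1, Grin2c, was higher.

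**Figure D1:**
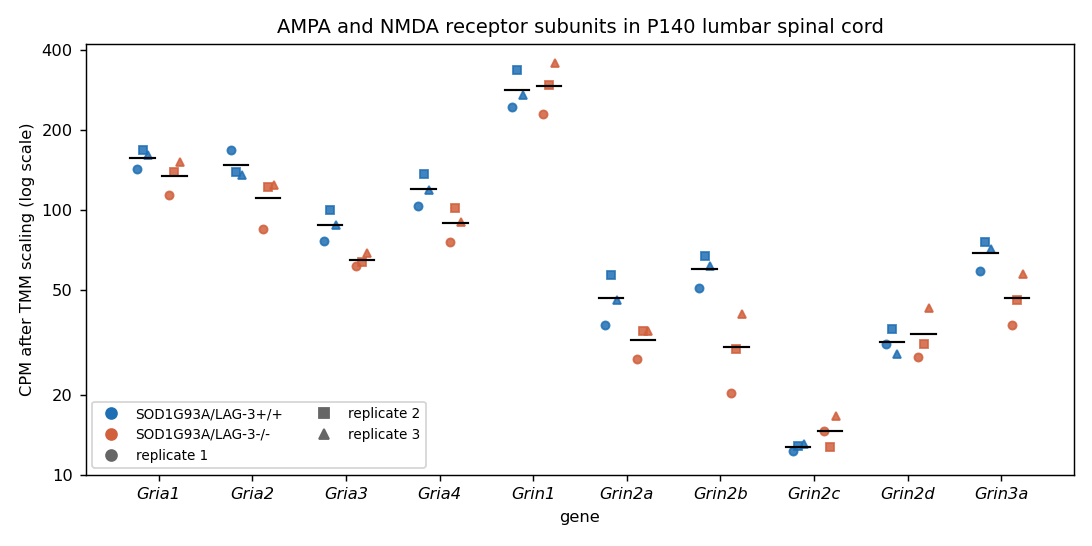
CPM after TMM scaling (log axis) of the 10 subunit genes in each of the 6 P140 cord libraries, with LAG-3+/+ in blue, LAG-3-/- in orange, a marker shape for each replicate and a black bar at the mean of 3 libraries. Blue and orange do not overlap for Gria2, Gria3, Gria4, Grin2a, Grin2b and Grin3a, and LAG-3-/- replicate 1 is the lowest of the 6 libraries for 9 of the 10 genes.

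Of the AMPA receptor subunits, Gria1 encodes GluA1, the subunit whose insertion strengthens synapses during plasticity. Its level was 143, 168 and 161 CPM in LAG-3+/+ cord and 114, 139 and 151 CPM in LAG-3-/- cord. The groups overlapped in the library pair of 143 and 151 CPM, and the log2 fold change of -0.22 (SE 0.13) did not pass the test (adjusted p = 0.188, edgeR's quasi-likelihood test). The value turned on single libraries, at -0.33 and called without LAG-3-/- library 3 (adjusted p = 0.0460) and at -0.12 without LAG-3-/- library 1, and it was also called with library totals (-0.34) and with scaling to pan-neuronal markers (-0.38). After the correction it was 0.01 (SE 0.10).

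Gria2, whose product limits calcium entry, was at 169, 139 and 135 CPM in LAG-3+/+ cord and at 84.5, 122 and 124 CPM in LAG-3-/- cord. The lowest LAG-3-/- library, replicate 1, was far below its group, and the highest LAG-3-/- library lay 10.6 CPM below the lowest LAG-3+/+ library. The log2 fold change was -0.42 (SE 0.16, adjusted p = 0.0543 by edgeR's quasi-likelihood test), a level 25.1% lower. This call was lost when LAG-3+/+ library 1 was left out (-0.32, adjusted p = 0.174) and when LAG-3-/- library 1 was left out (-0.26, adjusted p = 0.144). With the correction the value was 0.09 (SE 0.12, adjusted p = 0.636).

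Gria3 encodes GluA3 and lies on the X chromosome. It was at 75.9, 99.5 and 87.8 CPM in LAG-3+/+ cord and at 61.3, 63.7 and 68.8 CPM in LAG-3-/- cord, where the 3 libraries lay close together. The difference was -0.44 on the log2 scale (SE 0.12, adjusted p = 0.0115, edgeR's quasi-likelihood test) and was called with each library left out in turn. The corrected value was -0.16 (SE 0.10, adjusted p = 0.283).

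Gria4 encodes GluA4, a subunit with fast kinetics that is prominent in the spinal cord and brainstem. Its level was 104, 136 and 119 CPM in LAG-3+/+ cord and 75.5, 101 and 89.8 CPM in LAG-3-/- cord, so that the highest LAG-3-/- library lay 2.20 CPM below the lowest LAG-3+/+ library. It was lower by a log2 fold change of -0.43 (SE 0.14, adjusted p = 0.0281, edgeR's quasi-likelihood test), and without LAG-3+/+ library 2 the call was lost (adjusted p = 0.110). With the correction it was -0.07 (SE 0.12). Summed over the 4 genes, AMPA receptor transcripts were at 491, 542 and 503 CPM in LAG-3+/+ cord and at 335, 426 and 434 CPM in LAG-3-/- cord.

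In the NMDA receptor, Grin1 encodes the subunit that every receptor contains. Its level was 244, 337 and 272 CPM in LAG-3+/+ cord and 230, 295 and 357 CPM in LAG-3-/- cord. The lowest and the highest of the 6 libraries were both LAG-3-/-, and the log2 fold change was 0.05 (SE 0.17, adjusted p = 0.847, edgeR's quasi-likelihood test). The corrected value was 0.04. Its sign turned to -0.30 with the sex read from Xist and Y-linked transcripts as a covariate, also without a call.

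Grin2b encodes GluN2B, a subunit that gives slow decay and is a major partner of GluN1 early in life. On GRCm39 the gene spans chr6:135690231-136150548. It was at 50.6, 66.8 and 61.5 CPM in LAG-3+/+ cord and at 20.4, 29.9 and 40.4 CPM in LAG-3-/- cord. The gap between the groups, from 40.4 to 50.6 CPM, was narrower than the range within the LAG-3-/- group. With a log2 fold change of -0.98 (SE 0.23, adjusted p = 0.0107, edgeR's quasi-likelihood test) it was the largest difference among the 10 subunits, a level 49.2% lower, and it was called with each library left out in turn, at -1.25 to -0.77. After the correction the value was -0.31 (SE 0.16, adjusted p = 0.190), still the most negative of the 10.

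Grin2b and Lag3 are on the same chromosome, 10.8 Mb apart, with Lag3 at chr6:124881320-124888765. The genes in between were therefore counted. Of the 88 genes tested between them, 21.6% were lower and 22.7% higher in LAG-3-/- cord, with a median log2 fold change of 0.03, against 23.9% and 23.1% over all genes. With the correction 22.7% were lower and 14.8% higher, with a median of -0.10, against 16.6% and 16% over all genes. Any part of the distance to Lag3 in the level of Grin2b was not tested.

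Grin2a encodes GluN2A, which gives faster decay and dominates at mature synapses. It was at 36.9, 56.6 and 45.6 CPM in LAG-3+/+ cord and at 27.3, 34.8 and 34.8 CPM in LAG-3-/- cord. The groups did not overlap, although LAG-3+/+ library 1 was only 2.03 CPM above the highest LAG-3-/- library. The log2 fold change was -0.52 (SE 0.16, adjusted p = 0.0256, edgeR's quasi-likelihood test), and after the correction it was 0.07 (SE 0.14, adjusted p = 0.755).

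Grin2c and Grin2d encode GluN2C and GluN2D, the GluN2 subunits with weaker magnesium block. Grin2c was at 12.3, 12.9 and 13.1 CPM in LAG-3+/+ cord and at 14.6, 12.8 and 16.6 CPM in LAG-3-/- cord. It was the only subunit whose call appeared with the correction, from a log2 fold change of 0.20 (SE 0.13, adjusted p = 0.255) to 0.54 (SE 0.13, adjusted p = 0.0148, edgeR's quasi-likelihood test). Its longest annotated transcript, 10235 bases, is longer than its median coding transcript of 5015 bases, and with the median length in the correction the value was 0.31, which was also called. Grin2d was at 31.1, 35.5 and 28.5 CPM in LAG-3+/+ cord and at 27.9, 31.2 and 42.7 CPM in LAG-3-/- cord, so both the lowest and the highest of the 6 libraries were LAG-3-/-. Its log2 fold change was 0.10 without the correction (SE 0.16) and 0.10 with it (SE 0.10), and neither passed the test. With a correction for length alone, Grin2d was called higher at 0.39 (adjusted p = 0.0608, edgeR's quasi-likelihood test).

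Grin3a encodes GluN3A, which lowers the calcium permeability of the receptors that contain it. It was at 59.0, 75.5 and 71.4 CPM in LAG-3+/+ cord and at 36.8, 45.5 and 57.3 CPM in LAG-3-/- cord. The highest LAG-3-/- library was 1.63 CPM below the lowest LAG-3+/+ library. The log2 fold change was -0.56 (SE 0.16, adjusted p = 0.0177, edgeR's quasi-likelihood test), a level 32.1% lower, called with each library left out in turn, and the corrected value was -0.19 (SE 0.12, adjusted p = 0.305). Summed over the 6 genes, without Grin3b, NMDA receptor transcripts were at 434, 584 and 492 CPM in LAG-3+/+ cord and at 358, 449 and 549 CPM in LAG-3-/- cord, so the groups overlapped.

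**Figure D2:**
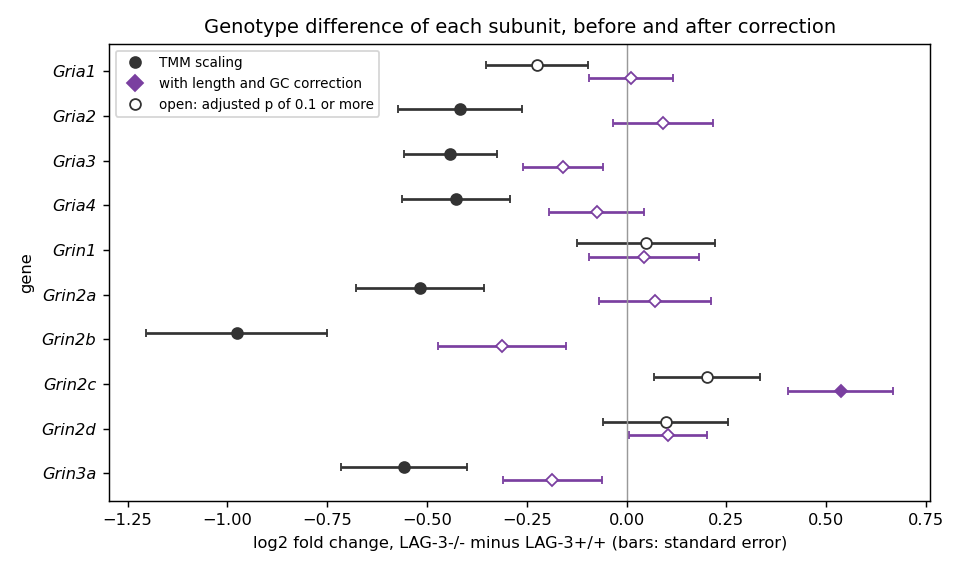
Log2 fold change of each subunit gene, LAG-3-/- minus LAG-3+/+ cord, with TMM scaling (black circles) and with the length and GC correction (purple diamonds); bars are 1 standard error and open symbols have an adjusted p of 0.1 or more. Black circles are filled for 6 genes, all left of 0, and the purple diamonds lie between -0.31 for Grin2b and 0.54 for Grin2c, the only filled diamond.

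Base composition was set beside the calls. In their longest annotated transcripts, GC content was 37.0% to 49.5% in the 6 genes called lower and 49.4% to 64.8% in Gria1, Grin1, Grin2c and Grin2d. The positive fold changes belonged to the 3 genes with the most GC, Grin2d at 64.8%, Grin1 at 59.8% and Grin2c at 57.2%, although without TMM factors those of Grin1 and Grin2d turned to -0.06 and -0.02, and the median of all genes moved to -0.13. Length alone did not order them, because the 10235 bases of Grin2c put it among the longer transcripts. Beside the genes of their own length, Gria1 at -0.22, Gria2 at -0.42 and Grin2a at -0.52 were less negative than the bin medians of -0.33, -0.53 and -0.65. More negative than their bin medians were Gria3 at -0.44 (-0.10), Gria4 at -0.43 (-0.33), Grin3a at -0.56 (-0.33) and Grin2b at -0.98 (-0.66).

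**Figure D3:**
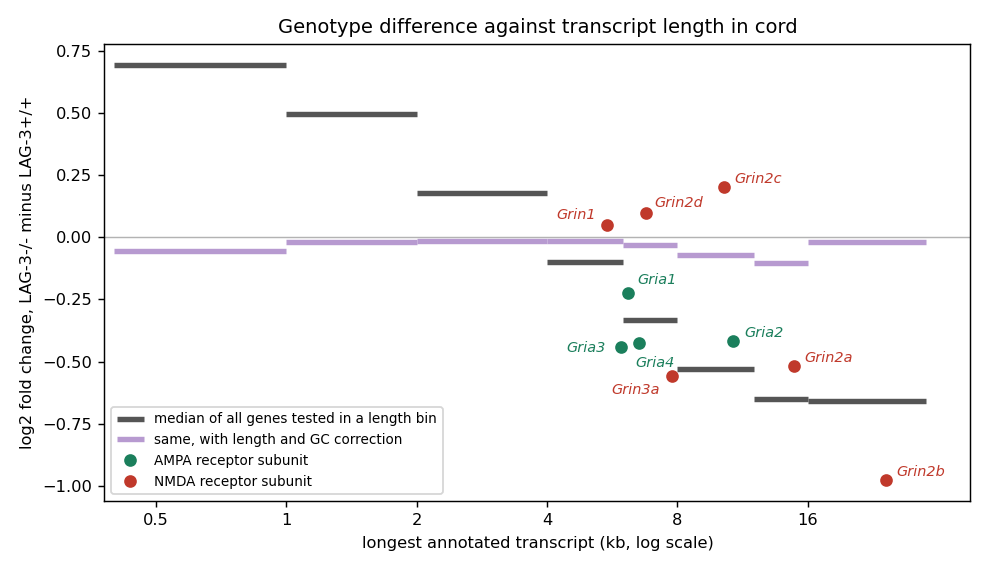
Log2 fold change, LAG-3-/- minus LAG-3+/+ cord, against the longest annotated transcript in kb (log axis); grey bars are medians of all genes tested in a length bin, light purple bars the same medians after correction, and points are the AMPA (green) and NMDA (red) receptor subunits before correction. The grey medians fall from 0.69 below 1 kb to -0.66 above 16 kb, and Grin1, Grin2d and Grin2c lie above the bars of their own bins.

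The trend was not equally steep in every library. The median deviation from the 6-library mean, on the log2 scale, was 0.25 to 0.29 in the LAG-3+/+ libraries for the 1488 genes of 8 kb or more. In the LAG-3-/- libraries 1, 2 and 3 it was -0.39, -0.25 and -0.16. The mean deviation of the 10 subunits was -0.42, -0.14 and 0.06 in LAG-3-/- libraries 1, 2 and 3 and 0.03 to 0.31 in LAG-3+/+ libraries, so LAG-3-/- library 3 was above the lowest LAG-3+/+ library. What gave the length trend was not tested.

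The part of sex in these differences could not be tested apart from single libraries. With the sex read from Xist and Y-linked transcripts as a covariate, 7 of the 10 subunits were lower, Gria1 being the addition, and 0 higher, against 20.7% and 19.1% of all genes. With this covariate and the correction together 2 were lower and 1 higher, against 10.6% and 13% of all genes. Those 2 were Grin2b, at a log2 fold change of -0.63 (adjusted p = 0.0621), and Grin3a, at -0.42 (adjusted p = 0.0945), and the higher gene was Grin2c, at 0.75 (adjusted p = 0.0111, edgeR's quasi-likelihood test for all 3). In such a fit the genotype difference rests on LAG-3-/- library 1 alone against the 3 LAG-3+/+ libraries, which assumes that this library varies like the others. It was the lowest library for 9 of the 10 genes and had the steepest length trend.

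Levels were compared between genes as CPM per kb of the median coding transcript. In LAG-3+/+ cord Grin1 was highest at 71.8, with libraries from 61.7 to 85.1, followed by Gria4 at 29.2 ± 3.98 (SD, n = 3) and Gria1 at 26.8 ± 2.19, whose libraries overlapped. Gria2 at 18.9 ± 2.35 and Gria3 at 15.8 ± 2.12 came next and also overlapped with each other. Grin3a followed at 9.01 ± 1.13, then Grin2d at 5.91 ± 0.665 and Grin2b at 4.51 ± 0.625 CPM per kb, each clear of its neighbours above. Grin2a at 3.17 ± 0.675 overlapped with Grin2b and with Grin2c, the lowest at 2.54 ± 0.0854. In LAG-3-/- cord Grin2c, at 2.93 ± 0.382, was above Grin2b at 2.29 ± 0.755 and Grin2a at 2.21 ± 0.297 CPM per kb, within overlapping ranges for Grin2b. The order depends on the length used. Per kb of the longest transcript, Gria1 was above Gria4, Gria3 above Gria2 and Grin2a above Grin2b in LAG-3+/+ cord, and in LAG-3-/- cord Grin2a at 2.17 was above Grin2c at 1.43 and Grin2b at 1.25 CPM per kb.

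Because the GluN2 subunits compete for the same partner, their shares of the summed CPM per kb of median coding transcript were also taken. Grin2b made up 26.2%, 27.9% and 29.7% of the GluN2 pool in LAG-3+/+ cord and 13.4%, 17.4% and 18.3% in LAG-3-/- cord. The share of Grin2d was 36.7% ± 2.95 in LAG-3+/+ and 45.8% ± 1.60 in LAG-3-/- cord, and that of Grin2c 15.9% ± 1.47 and 21.6% ± 3.25 (SD, n = 3 each), both without overlap. The share of Grin2a was 19.5% ± 2.07 and 16.2% ± 2.02, with overlap. Per kb of the longest transcript the order changed. Grin2a then made up 26.9% ± 2.67 in LAG-3+/+ and 22.2% ± 2.60 in LAG-3-/- cord, and Grin2b 21.3% ± 1.40 and 12.4% ± 1.94. The ratio of Grin2b to Grin2a counts, which needs no length, was 1.37, 1.18 and 1.35 in LAG-3+/+ cord and 0.748, 0.859 and 1.16 in LAG-3-/- cord, so the groups did not overlap, by a small margin between 1.16 and 1.18. Shares were not computed with the length and GC correction, and any part of the length trend in them was not tested. In this pool Grin2b has the longest transcript, and Grin2c and Grin2d have the most GC.

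In the AMPA receptor pool, Gria1 made up 28.7%, 29.3% and 30.7% in LAG-3+/+ cord and 32.4%, 31.3% and 33.9% in LAG-3-/- cord, without overlap. The shares of Gria2, the subunit that limits calcium entry, were 21.0% ± 3.88 and 19.9% ± 1.57, with those of Gria3 at 17.4% ± 1.16 and 16.7% ± 1.69 and of Gria4 at 32.1% ± 2.17 and 30.9% ± 1.98, all with overlapping libraries. Per kb of the longest transcript, Gria1 made up 35.3% in LAG-3+/+ cord and 38.5% in LAG-3-/- cord, and Gria4 25.3% and 24.1%. No test was made of shares.

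**Figure D4:**
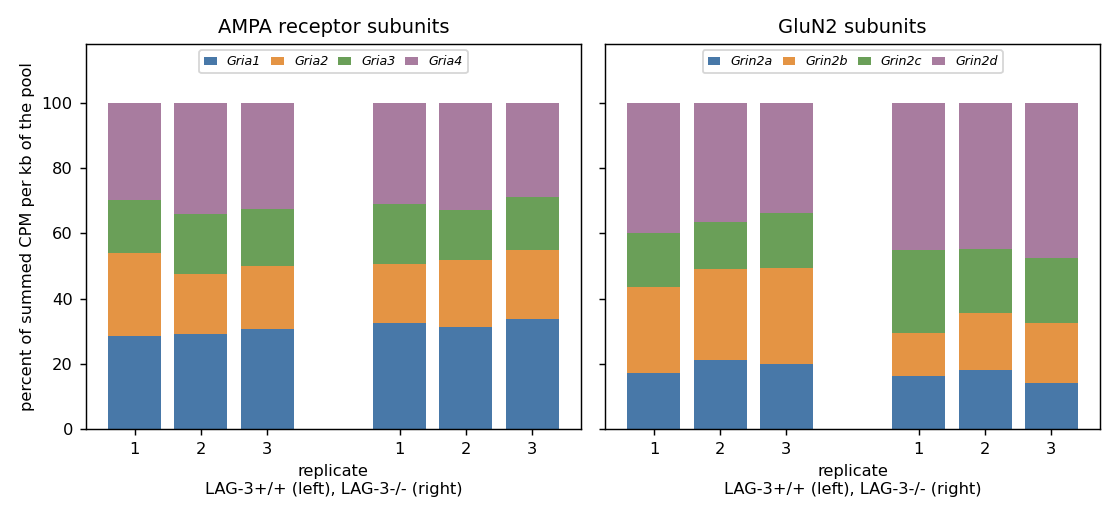
Percent of the summed CPM per kb of median coding transcript taken by each gene, in each P140 cord library, for the AMPA receptor subunits (left) and the GluN2 subunits (right); bars are single libraries, LAG-3+/+ on the left of each panel. The orange part, Grin2b, takes 26.2% to 29.7% of the GluN2 pool in LAG-3+/+ cord and 13.4% to 18.3% in LAG-3-/- cord, while Gria2 takes 18.1% to 25.4% of the AMPA receptor pool over all 6 libraries.

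In bulk cord, fewer neurons and less RNA per neuron cannot be told apart, so neuronal markers are set beside the receptor genes. Summed over 12 pan-neuronal markers, the level was 4647 to 6164 CPM in LAG-3+/+ cord and 5841 to 6346 CPM in LAG-3-/- cord, in overlapping ranges. Of the 12, 2 were lower and 3 higher. Map2, a dendritic cytoskeletal protein with a log2 fold change of -0.65, was lower, and Tubb3, neuronal tubulin, was higher at 0.82 (adjusted p = 0.00480 and 0.00182, edgeR's quasi-likelihood test). With the correction Map2 was at -0.17, not called, and Tubb3 at 0.61, still called. Of 8 motor neuron markers 0 were lower and 4 higher, among them Chodl at 1.52 and Prph at 1.39 (1.41 and 0.87 corrected). With library sizes scaled to the pan-neuronal markers instead, which moved the median of all genes to -0.17, 7 of the 10 subunits were lower and 0 higher, against 28.2% and 12% of all genes.

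Of the other ionotropic glutamate receptor subunits, the kainate and delta families and Grin3b, 4 of 8 were lower and 2 higher, with a median log2 fold change of -0.26, and after the correction 2 were lower and 2 higher. Grik3, a kainate receptor subunit, was lower in both fits, at -0.98 and, with the correction, at -0.61. Grin3b, the other GluN3 gene, was higher at 1.06 (SE 0.22), and at 0.77 with the correction. Of the metabotropic glutamate receptors, which act through G proteins, 4 of the 7 tested were lower and 0 higher, with Grm5 at -0.62 and Grm3 at -0.39. After the correction 1 was lower and 1 higher, and Grm5 at -0.15 and Grm3 at -0.17 were not called.

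Among 15 auxiliary proteins of the AMPA receptor, which steer its traffic and gating, 2 were lower and 4 higher, with a median of 0.17. Shisa6, which holds AMPA receptors at the synapse, was lower at -1.02 (SE 0.12) and at -0.68 with the correction. Shisa8 was higher at 0.99 (0.55 corrected), and Cnih2, a cornichon that aids export of AMPA receptors to the surface, was higher at 0.68, and at 0.11 without a call when corrected. Of 25 scaffold and signalling proteins of the postsynaptic density, 13 were lower and 2 higher, and 4 and 2 after the correction. Dlgap2, a scaffold that links PSD-95 to Shank proteins, was at -1.21 (SE 0.20) and at -0.81 corrected, Homer1, which couples metabotropic receptors to calcium stores, at -0.70 and -0.36, and Neto2, an auxiliary subunit of kainate receptors, at -0.63 and -0.33, and all 3 remained called.

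The editing enzymes were measured because GluA2 depends on them. Adarb1 was lower at a log2 fold change of -0.43 (adjusted p = 0.0837), as was Adar at -0.37 (adjusted p = 0.0664, edgeR's quasi-likelihood test), and Adarb2, which is thought to lack activity, was at -0.34 without a call. After the correction they were at -0.19, -0.24 and -0.01, and none was called. Editing of the Gria2 transcript itself cannot be read from gene counts.

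For the handling of glutamate, 1 of 10 genes was lower and 2 were higher. The lower gene was Slc1a2, the main astrocytic glutamate transporter, at -0.85 (SE 0.14) and at -0.33 with the correction, no longer called. Slc1a6, another glutamate transporter, and Gls2, a glutaminase, were higher at 0.52 and 0.40, and neither was called after the correction, at 0.09 and 0.16. Of 8 astrocyte markers, which include Slc1a2, 4 were lower and 0 higher, with Aqp4 at -0.99 and Sox9 at -0.84, and both were called after the correction too, at -0.73 and -0.85. Of 8 genes that make or move the NMDA receptor co-agonists D-serine and glycine, 3 were lower and 3 higher. Slc6a5, the glycine transporter of glycinergic neurons, was lower at -0.84. Phgdh, which starts serine synthesis, and Slc7a10, which carries D-serine, were higher at 0.79 and 0.51. All 3 kept their calls with the correction, at -0.50, 0.30 and 0.82. The longest transcript of Slc7a10, used in the correction, has 8372 bases, against 2012 for its median coding transcript.

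The genes whose levels ran most like the receptor genes over the 6 cord libraries were found by the root mean square distance between centred log2 CPM profiles, among 15622 genes of at least 1 CPM. Nearest to the mean profile of the AMPA receptor subunits were Nlgn3, a postsynaptic adhesion protein, at a distance of 0.021, Ago4, an Argonaute protein, at 0.031 and Smarcc1, a chromatin remodelling subunit, at 0.031. For the NMDA receptor subunits they were Brsk2, a neuronal kinase, at 0.021, Adgrl1, a latrophilin of the presynapse, at 0.026 and Elfn2 at 0.031. The mean profiles themselves had a root mean square of 0.23 and 0.24 on this scale.

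In sorted microglia the receptor genes were nearly absent. Summed over the 10 genes, the level was 0 to 4.04 CPM of the unscaled library total in 26 microglia libraries, with a median of 0.494, against 623 to 1164 in the 6 cord libraries. The sum was 0 counts in 2 microglia libraries, which allows up to 0.0882 and 0.195 CPM. Gria1 had 0 counts in 25 of the 26 libraries, and the highest count of any member was 116, for Grin2d. The microglia tables were deposited separately from the cord table, so the levels are set side by side without a test.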

How the data were processed

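Total RNA of lumbar spinal cord was sequenced by the authors as paired reads, with directional libraries by the study's methods and a SMART-seq kit by the labels. Reads were trimmed with Trim Galore 0.6.7 and quantified with Salmon 1.9.0 against the GRCm39 transcriptome, and tximport in R 4.2.1 summed transcripts to genes. The annotation release and the tximport scaling are not given in the sources used here. The authors deposited estimated counts per Ensembl gene, neither whole nor normalized, and these were rounded here.

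Symbols, coordinates, lengths and GC content came from GENCODE M39 on GRCm39, from which 71 identifiers, with 0.0145% of the counts, were absent. The 6 cord libraries were grouped by title. Low genes were removed by edgeR's filterByExpr, which asked for 10 counts in enough libraries and 15 in total, and TMM scaling and a robust quasi-likelihood fit followed (edgeR 4.0.16, R 4.3.3). P-values of the 17702 genes left were adjusted by Benjamini-Hochberg, with 0.1 as the threshold. CPM are the rounded counts divided by the TMM-scaled totals. The correction subtracts from each library a loess surface (span 0.3) of log2 CPM deviation, as offsets in the same fit. The surface runs against the length and GC content of the longest transcript. For some genes, such as Grik3 (9264 bases) and Shisa6 (7252), this is far longer than the median coding transcript (2472.5 and 2332). Intervals and limits from counts, such as the limit of 3 counts for a sum of 0, cover counting error only.

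The members and gene lists were chosen with earlier results of these data known, so counts over lists have no test and support nothing on their own. The genes named are all 10 members, Lag3, for each list of glutamate signalling genes, pan-neuronal, motor neuron and astrocyte markers up to 3 genes of smallest adjusted p, and the 3 genes nearest in profile to each receptor. Other cell type lists are given as counts. Some genes that this rule names are not reported here. The fit and the correction were run on simulated data, with the same length trend in each LAG-3-/- library and no GC trend. The cord libraries had unequal length trends and a GC trend, which this simulation does not cover. Alternatives were DESeq2 1.42.0, RLE factors, library totals, pan-neuronal scaling, other filters on low counts (none, or 10 counts on average), sex as listed, a replicate block, and each library left out in turn. Other forms of the correction and the sex read from transcripts were added after the data had been seen. No column of the cord table was left out, and a planned description of protein sequences was not made because no protein table was given.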

Additional observations from a re-analysis of the deposited data

Results flagged for a closer look

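The summed level of the 10 receptor genes in sorted microglia had a single high library in 2 of the 3 groups large enough to be tested for one. In WT microglia, replicate 1 was at 1.17 CPM while the other 3 libraries were at 0.490 to 0.557. In LAG-3-low SOD1G93A microglia, replicate 1 was at 2.42 CPM and the other 4 at 0.148 to 0.498. With normally distributed values chance marks about 1 in 20 such groups, and sums of so few counts need not be distributed so. These levels of 1.17 and 2.42 CPM rest on 22 and 45 counts, and the summed level was at least 623 CPM in cord.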

How the results depend on the processing

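The 6 lower and 0 higher receptor genes were also found with RLE size factors, DESeq2, other filters and the listed sex. It was 7 lower with library totals, pan-neuronal scaling or the sex read from transcripts, where 30%, 28.2% and 20.7% of all genes were lower and 16.5%, 12% and 19.1% higher, and 5 to 7 with each library left out in turn. With RLE size factors, DESeq2, other filters and the listed sex, 11.4% to 24.3% of all genes were lower and 10.1% to 23.2% higher. The lowest of these shares were those of DESeq2 and of no filter, out of 35412 genes. In LAG-3+/+ libraries 1 and 2 the listed sex was not the one read from transcripts, so its fit does not adjust for the latter. With each library left out in turn, 17.7% to 24.4% of all genes were lower and 17.5% to 22% higher. The replicate numbers did not pair the libraries (correlation of deviations -0.030 to 0.022). The replicate block left 6 lower and 0 higher, against 24.3% and 22.7% of all genes.

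The count of lower receptor genes was 0 with the length and GC correction, also at an adjusted p under 0.05, with length alone, with the median coding transcript as length and with LAG-3-/- library 2 left out. It was 1, Grin2b, with the replicate block and the correction (-0.32, adjusted p = 0.0279), 2 with the sex read from transcripts and the correction, and 0 with the fold minimum. Of all genes, 16.6% were lower with the correction, 15.8% with length alone and 14.8% with the median length. The share lower was 17.6% with the block and the correction, and 10.7% without LAG-3-/- library 2 and corrected. The count of higher receptor genes was 2, Grin2c and Grin2d, with length alone, against 16% of all genes. It was 1 in all other corrected fits, against 12% to 16.3% of all genes at an adjusted p under 0.1. Over all genes the lower count of 4234 became 2791 with length alone, 2624 with the median length, 1916 without LAG-3-/- library 2, 1881 with the sex read from transcripts, 2085 at the stricter threshold (all corrected) and 558 with the fold minimum. The higher count of 4096 became 2640, 2159, 2294 and 2182 in the last 4 corrected fits, 773 with the fold minimum and 2130 with pan-neuronal scaling.

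Some differences changed sign. With the correction, with it and the block, with length alone and with the median length, Gria1 was at 0.011, 0.0076, 0.011 and 0.13, Gria2 at 0.091, 0.086, 0.14 and 0.14, and Grin2a at 0.071, 0.085, 0.18 and 0.25. Without LAG-3-/- library 2 and corrected, Gria2 was at 0.052 and Grin2a at 0.028, and Grin2a was at 0.011 with the sex read from transcripts and the correction. Grin1 was at -0.064 with library totals, -0.095 with pan-neuronal scaling, -0.012 with the median length, -0.30 with the sex read from transcripts and -0.18 with that and the correction, and at -0.13 to 0.19 with each library left out. Grin2d was at -0.019, -0.058 and -0.19 with library totals, pan-neuronal scaling and the sex read from transcripts, and at -0.12 to 0.22 with each library left out. With the sex read from transcripts and the correction, Cnih2 was at -0.078, Slc1a6 at -0.32 and Nlgn3 at 0.00013. Nlgn3 was at 0.081 with the correction, 0.080 with the block added, 0.087 with length alone and 0.029 without LAG-3-/- library 2, and Elfn2 at 0.0035, 0.0048, 0.20 and 0.00054 in the same fits. Ago4 was at 0.017 with the median length and Adgrl1 at 0.14 with length alone. These causes were not tested.

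A design of 3 libraries a group limits what can be seen in single genes: standard errors of the receptor genes were 0.12 to 0.23 on the log2 scale. The lowest count of a receptor gene in a cord library was 256, for Grin2c.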

Other observations

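Other cell types of the cord were counted by the same test. Of 8 oligodendrocyte markers 0 were lower and 4 higher in LAG-3-/- cord, and their summed level was 17186 to 18785 CPM in LAG-3+/+ and 24140 to 33705 CPM in LAG-3-/- cord, without overlap. Of 6 oligodendrocyte precursor markers 2 were lower and 1 higher, of 6 endothelial markers 3 and 1, and of 8 microglia markers 2 and 1. After the length and GC correction these counts were 0 and 3 for oligodendrocytes, 1 and 0 for their precursors, 2 and 0 for endothelium and 2 and 0 for microglia.

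Among neurons, 0 of 7 excitatory markers were lower and 3 higher, while 3 of 7 inhibitory markers were lower and 2 higher, and the corrected counts were 0 and 2 for excitatory and 3 and 0 for inhibitory markers. With the correction 3 astrocyte markers were lower and 0 higher, and motor neuron markers had 3 higher calls after the correction. Of the sensory neuron markers 3 of 6 had enough counts for the test, with 0 lower and 1 higher. The summed level of the 6 was 8.46 to 14.5 CPM in LAG-3+/+ and 27.1 to 50.8 CPM in LAG-3-/- cord, without overlap. Among Schwann cell, skeletal muscle and meningeal fibroblast markers, 0 were called in either direction (edgeR), and the summed level of the fibroblast markers was 385 CPM in LAG-3-/- library 2 and 64.1 to 78.4 CPM in the others.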
